A study of Mus musculus with 10 samples.

Results

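Mitosis and G2/M genes are the genes whose RNA builds up as a cell leaves S phase and divides: the cyclin B kinase and its regulators, the spindle motors, the kinetochore and its checkpoint, condensin, and the machinery that cuts the cell apart. A fixed list of 54 of them was taken by GENCODE symbol out of the 54408 genes measured. The cells were CD8 T cells with the TCRP1A receptor, which sees the tumour antigen P1A. They had been activated for 24 h, given a retroviral vector and moved into Rag1-/- B10D2 mice, which make no T or B cells of their own and bore P511, a mastocytoma (a tumour of mast cells); the labels give the strain as C57BL/6. The CD8 T cells were sorted from the tumours 7 days after transfer, and the age of the mice is not given in the sources used here. The vectors carried eGFP alone (eGFP control libraries 3, 6 and 7), NFAT5 (libraries 1, 5 and 8), a transcription factor known for the osmotic stress response, or NFAT1 CA-RIT (CA-RIT NFAT1 libraries 2, 4, 9 and 10), a form of NFAT1 made constitutively active and unable to cooperate with AP-1. Each level below is in CPM, the estimated reads of a gene scaled to the reads on all genes of its library. Whether the libraries are from different mice is not stated in the labels, so the p-values below reflect the spread among these samples alone, which may be technical.

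A dividing T cell makes these RNAs in G2 and M phase, when the factors FOXM1 and B-MYB with the MuvB complex bind the promoters of the genes, and it represses the same promoters through the DREAM complex when it rests. The proteins act in order: cyclin B with CDK1 starts mitosis, Aurora and Polo kinases and kinesins build the spindle, the checkpoint holds the anaphase promoting complex until all chromosomes are attached, and separase then frees the sister chromatids. In T cells the summed level of such genes is widely used as a readout of how many cells are cycling.

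A DNA word that marks these promoters is the cell cycle homology region, the MuvB binding word TTTGAA or TTCGAA, often with a CCAAT box upstream. The RefSeq promoter table (GRCm38.p6, 250 bases before to 50 bases after each listed start) held 45 of the 54 genes. A homology word on either strand was found in 36 of these 45 (80.0%), against 21.7% of the 27025 genes of the table. CCAAT on either strand was found in 34 (75.6%, against 41.1% of all), and both words in 31 (68.9%, against 8.61%). The word TGGAAA, the core bound by NFAT proteins including NFAT5, was found in 6 (13.3%, against 23.9%), and it can overlap a CCAAT box read from the other strand. A match is a description of letters and not a bound site, and genes with several listed starts count once. The windows below show the shared word in genes described further on; each is 30 bases read 5′ to 3′ on the strand of the gene, with the word in capitals (TTCAAA is TTTGAA read from the other strand).
Cdk1 (chr10:69352916-69352945, minus strand): gagctttaccgcggcgagTTTGAAactgct
Ccnb2 (chr9:70421539-70421568, minus strand): tgcgtcagcggcgcggtaTTTGAAtcgcgg
Cdc20 (chr4:118437350-118437379, minus strand): cggttaagacagttgggtTTTGAAggagcc
Plk1 (chr7:122159447-122159476, plus strand): aacgttcccagcgccgcgTTTGAAttcggg
Aurka (chr2:172370527-172370556, minus strand): tattttaaaaggagaaccTTTGAAttgtaa
Ube2c (chr2:164769882-164769911, plus strand): gcagcgggagggttgcaaTTCAAAcgcggg
Mki67 (chr7:135716466-135716495, minus strand): tttgaaccgccgttttggTTTGAAtcgggc
Top2a (chr11:99024201-99024230, minus strand): gggcgggctagataaaggTTCAAAtgaaac
Kif11 (chr19:37376345-37376374, plus strand): ggtcagtcgtctccatttTTCAAAattgag
Cenpf (chr1:189688073-189688102, minus strand): ggcggcggcggcgggcagTTTGAAtcgctc
Bub1 (chr2:127831834-127831863, minus strand): gtgcggctgcgcggggaaTTCGAAtcgccg
Espl1 (chr15:102296248-102296277, plus strand): gattggtcactagggataTTTGAAaggagg
The first 6 belong to genes of entry into and exit from mitosis and the other 6 to chromosome, spindle and checkpoint genes and, last, to separase, and the word lies between 98 bases before and 33 bases after the listed start in all 12. The 9 genes with an entry and no match were Birc5, Ccnb1, Cenpe, Cks2, Mad2l1, Ncaph, Nuf2, Nusap1 and Pttg1.

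Not all libraries could be compared for these genes. eGFP control 7 held 51112 estimated reads in all, and 10 of them fell on 8 of the 54 genes, so it was left out. CA-RIT NFAT1 10 was left out too, because its T cell transcripts were nearly absent: Cd8a was at 0.0308 CPM there and between 581 and 988 CPM in the 8 libraries kept. Those 8 held 18813321 to 36626336 estimated reads, and the lowest count of any of the 54 genes in any of them was 93 reads (Cenpf in eGFP control 3). eGFP control 3 had the most reads of the 8 but the fewest genes with reads, 13197 against 15288 to 17269 in the others. How well read counts give the counting error there was not tested. Nfat5 was at 87.0, 81.5 and 48.0 CPM with NFAT5, 10.7, 4.70 and 3.01 CPM with CA-RIT NFAT1, and 1.12 and 6.88 CPM with eGFP, which separates the NFAT5 libraries from the others. Here and below, libraries stand in the order NFAT5 1, 5 and 8, CA-RIT NFAT1 2, 4 and 9, and eGFP control 3 and 6. Nfatc2, the gene of NFAT1, was at 70.0, 42.3 and 36.6 CPM with NFAT5, 88.8, 63.5 and 30.0 CPM with CA-RIT NFAT1, and 4.00 and 47.3 CPM with eGFP. These groups overlap, so its level does not check the CA-RIT NFAT1 label. eGFP control 3 stands apart for long transcripts, as given below, so fold changes and group medians against eGFP are also given without it where that moved them by over 1.5 times or changed their sign.

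Of the 54 genes, 49 were higher with NFAT5 than with eGFP and 50 were higher with CA-RIT NFAT1 than with eGFP, with median log2 fold changes of 0.56 and 0.67, and no single gene passed the edgeR test described below. The sum over all 54 was 8573, 10189 and 11732 CPM with NFAT5, 8069.9, 11452 and 11686 CPM with CA-RIT NFAT1, and 6395 and 7315 CPM with eGFP. Both eGFP libraries lie under all 6 others, and the other two groups overlap each other. The gap differed with transcript length, as described further below. The 17 genes with the longest transcripts summed to 585 and 1347 CPM in eGFP control 3 and 6. They summed to 1728 to 2514 CPM in the 6 others. The 10 shortest summed to 2817 and 2049 CPM with eGFP, within the 1955 to 3524 CPM of the 6 others. The remaining 27 summed to 2994 and 3919 CPM with eGFP, against 4386 to 6319 CPM. The part of length-related differences between libraries in the lower eGFP sums was not tested. Bulk RNA also cannot tell a smaller share of dividing cells from less RNA of these genes in each cell.

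**Figure D1:**
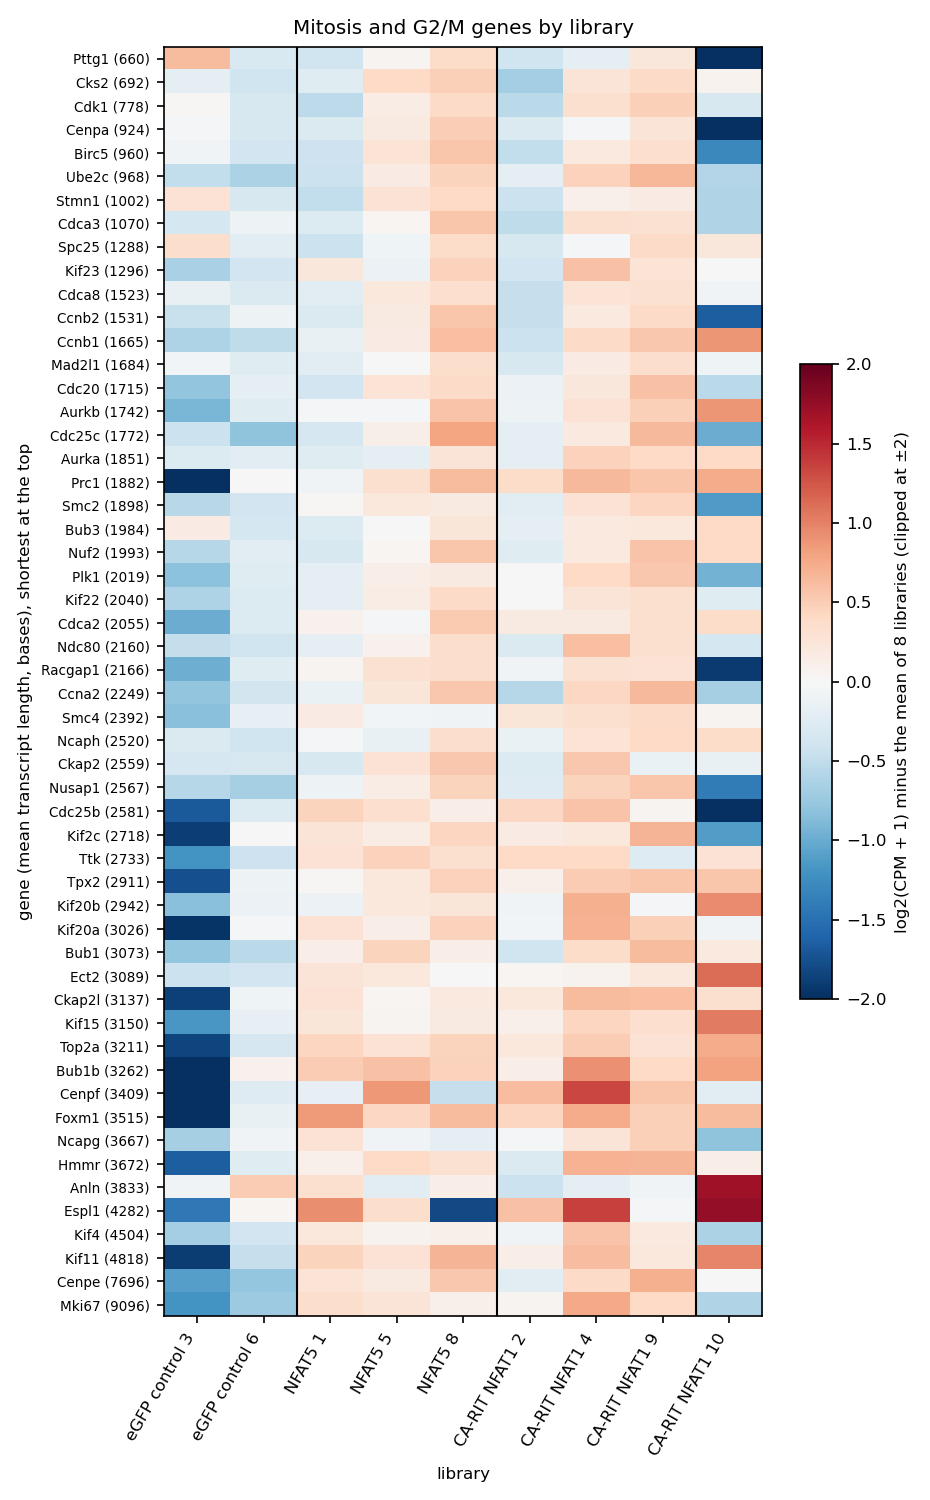
Level of each of the 54 genes (rows, with the mean transcript length in bases, shortest at the top) in 9 libraries (columns), as log2(CPM + 1) minus its mean over the 8 libraries compared; red is above that mean, blue below, and colours stop at ±2. The column of eGFP control 3 turns from a mix of pale blue, white and red for the shortest genes to blue or dark blue for nearly all long ones, eGFP control 6 is pale blue in most rows, and CA-RIT NFAT1 10 at the right, with few T cell transcripts, is mixed.

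The question asked of NFAT5 against eGFP is whether added NFAT5 goes with a different level of these genes. The log2 fold change lay above 0 for 49 of the 54, with a median of 0.56, where the median of all 14483 genes tested was 0.08 and 53.9% lay above 0. None of the 54 passed edgeR's quasi-likelihood test at a Benjamini-Hochberg adjusted p of 0.05, and 0.0% of all genes did. At an unadjusted p below 0.05, 9 of the 54 were higher and 0 lower, against 3.26% of all genes higher and 4.0% lower (7.26% in either direction). DESeq2 called 0 of the 54, and 0.876% of all genes, and limma voom called 0 of the 54 and 0.0% of all genes. All NFAT5 libraries lay above both eGFP libraries for 33 of the 54, against 14.2% of all genes, and all lay below for 0, against 8.15%. Taking eGFP control 6 alone, all NFAT5 libraries lay above it for 38 of the 54, against 22.5% of all genes. Without eGFP control 3 the count above 0 was 53 of 54 and the median 0.43, against 0.05 for all genes; that value rests on eGFP control 6 as the sole control.

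CA-RIT NFAT1 against eGFP asks the same of the other vector, and it uses the same eGFP libraries, so its values are not a second set of evidence. The log2 fold change lay above 0 for 50 of the 54, with a median of 0.67, against 0.10 and 54.6% for all genes. None of the 54 passed the edgeR test at the adjusted threshold, nor did any other gene (0.0%), and 18 of the 54 had an unadjusted p below 0.05, all higher, against 3.28% of all genes higher and 3.16% lower (6.44% in either direction). DESeq2 called 1 of the 54, Mki67 (log2 fold change 1.27, adjusted p = 0.018), and 0.61% of all genes, and limma voom called 0 of the 54 and 0.0% of all genes. All CA-RIT NFAT1 libraries lay above both eGFP libraries for 35 of the 54, against 14.2% of all genes, and below both for 0, against 6.7%. Above eGFP control 6 alone, all CA-RIT NFAT1 libraries lay for 37 of the 54, against 22.5% of all genes. Without eGFP control 3, 53 of 54 lay above 0 and the median was 0.46, against 0.05 for all genes. Without eGFP control 6, edgeR called 17 of the 54 with NFAT5 and 18 with CA-RIT NFAT1, but it then also called 3294 (20.6%) and 3411 (21.3%) of 16023 genes, with eGFP control 3 as the sole control.

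CA-RIT NFAT1 against NFAT5 asks whether the vectors differ from each other. The median log2 fold change was 0.04, with 32 of 54 above 0, against 0.00 and 50.5% for all genes. edgeR called 0 of the 54 and 0.0% of all genes, and at an unadjusted p below 0.05 it was 0 of the 54 and 1.13% of all genes. DESeq2 called 0 of the 54 and 0.0184% of all genes, and limma voom called 0 of the 54 and 0.0% of all genes. The libraries of the groups were apart for 1 gene, Smc4, against 4.05% of all genes higher in this way, and for 0 in the other direction, against 2.77%. A difference missed by this test is not shown to be absent: the standard error of a single gene of the 54 in this comparison ran from 0.20 to 0.69 on the log2 scale.

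**Figure D2:**
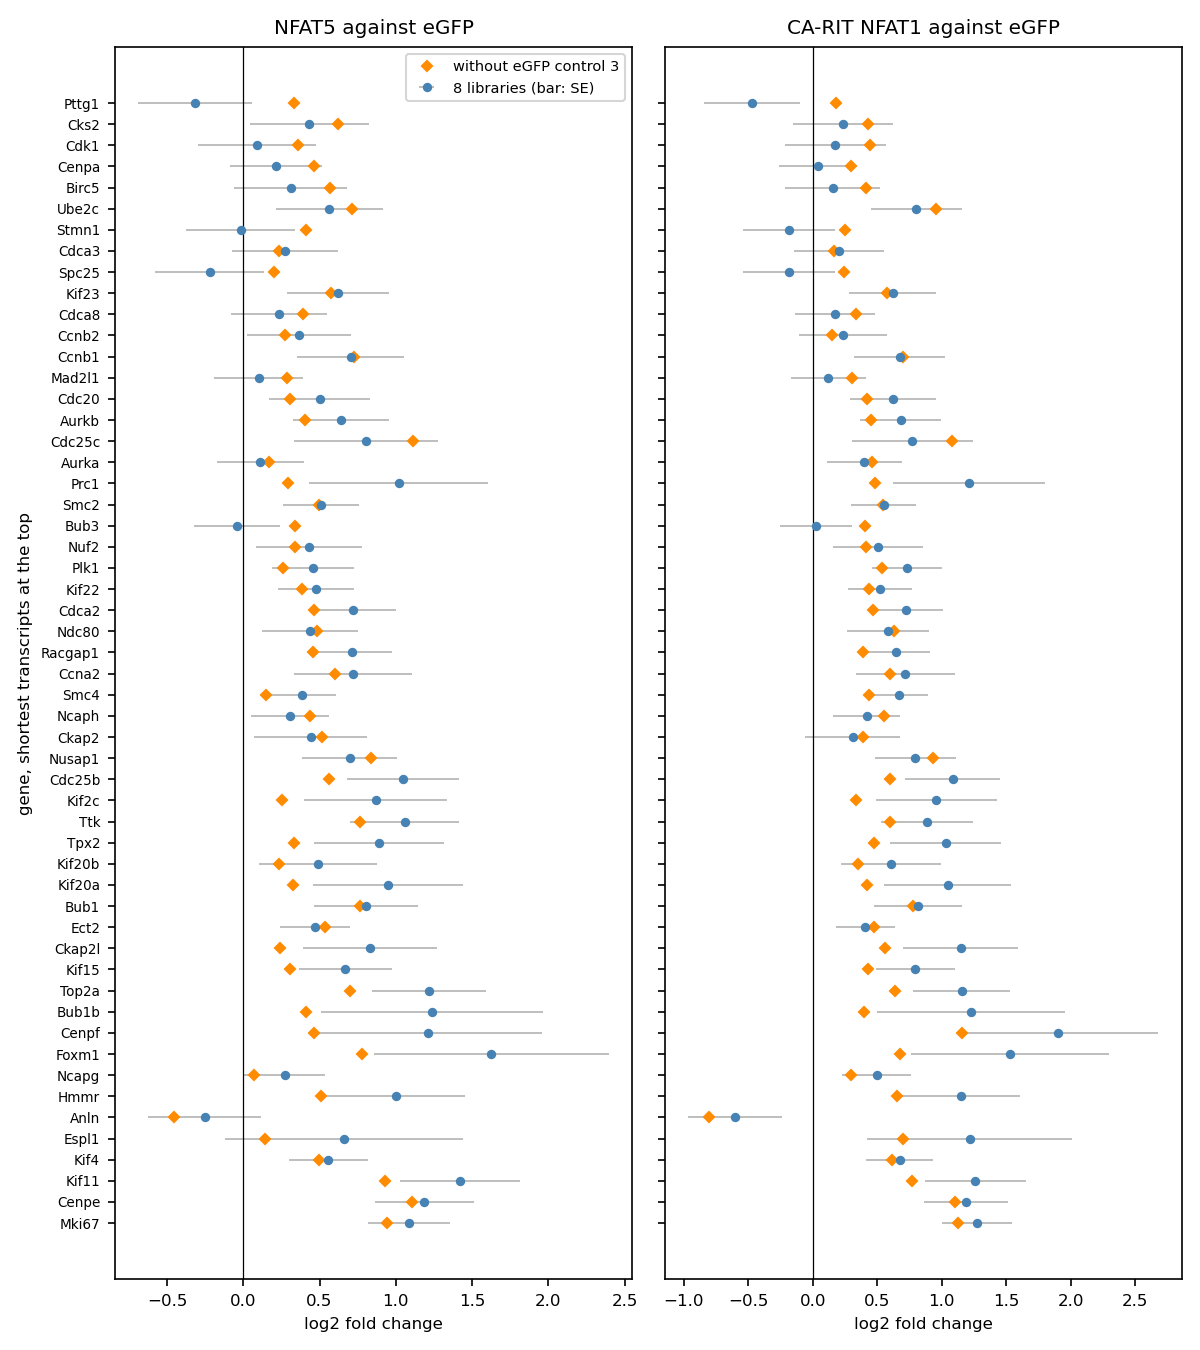
Log2 fold change (horizontal axis) of each of the 54 genes (rows, shortest transcripts at the top) for NFAT5 against eGFP (left) and CA-RIT NFAT1 against eGFP (right), over 8 libraries (blue circles, bars are standard errors) and without eGFP control 3 (orange diamonds). Most points lie to the right of 0; for most of the 10 shortest genes the orange diamonds lie to the right of the blue circles, and among the long genes at the bottom most lie to the left of them.

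Mki67 encodes Ki-67, the coat protein of mitotic chromosomes by which cycling cells are commonly counted (chromosome 7, 135689784 to 135716361, minus strand). It lay at 214, 200.3 and 180.2 CPM with NFAT5, 175, 283 and 221 CPM with CA-RIT NFAT1, and 72.9 and 101 CPM with eGFP. Both eGFP libraries are below every other library, and the log2 fold change was 1.09 ± 0.27 with NFAT5 and 1.27 ± 0.27 with CA-RIT NFAT1 (SE; edgeR adjusted p = 0.654 and 0.68), or 0.94 and 1.13 without eGFP control 3. For this longest of the 54 transcripts, removing the trend of each library with transcript length, described below, brought the values down to 0.37 and 0.28. Top2a, the topoisomerase that untangles replicated DNA (chromosome 11, 98992943 to 99024189, minus strand), was measured at 405, 366 and 409 CPM with NFAT5, 348, 426 and 365 CPM with CA-RIT NFAT1, and 82.7 and 237 CPM with eGFP. Its eGFP libraries are again the lowest, but far apart from each other, and its log2 fold changes of 1.22 and 1.15 became 0.70 and 0.64 without eGFP control 3. Stmn1, stathmin, which takes microtubules apart (chromosome 4, 134468320 to 134473843, plus strand), had the highest level of the 54 per length, a median of 1192 TPM (a scaled level that allows for transcript length) over the 8 libraries. It was at 659, 1131 and 1215 CPM with NFAT5, 687, 991 and 1031 CPM with CA-RIT NFAT1, and 1129.8 and 743 CPM with eGFP. Here eGFP control 3 is among the highest libraries and the groups overlap, with log2 fold changes of -0.02 ± 0.36 and -0.18 ± 0.36, and 0.41 and 0.25 without eGFP control 3.

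Cyclins, CDK1, its activating phosphatases and the CDK-binding protein Cks2 made a group of 7, all above 0 in both comparisons with eGFP (medians 0.70 and 0.67). Ccnb1, cyclin B1, the partner that switches CDK1 on at mitosis, was at 189, 234 and 319 CPM with NFAT5, 155, 274 and 304 CPM with CA-RIT NFAT1, and 136 and 147 CPM with eGFP. Both eGFP libraries are the lowest and lie close to each other, so the log2 fold changes of 0.70 ± 0.35 and 0.67 ± 0.35 hardly moved without eGFP control 3 (0.73 and 0.70). Ccnb2, cyclin B2, was at 262, 364 and 469 CPM with NFAT5, 231, 365 and 415 CPM with CA-RIT NFAT1, and 234 and 297 CPM with eGFP. Its groups overlap, and its differences of 0.36 and 0.24 are within their standard errors of 0.34 and 0.34 or close to them, and became 0.27 and 0.15 without eGFP control 3. Ccna2, cyclin A2, which acts from S phase into early mitosis, was at 310.4, 401 and 494 CPM with NFAT5, 229, 452 and 533 CPM with CA-RIT NFAT1, and 196 and 262 CPM with eGFP. All NFAT5 libraries are above both controls, while CA-RIT NFAT1 2 is between them. Cdk1, the kinase itself, was at 133, 213 and 250.2 CPM with NFAT5, 132, 239 and 267 CPM with CA-RIT NFAT1, and 193 and 153 CPM with eGFP. The libraries NFAT5 1 and CA-RIT NFAT1 2 are the lowest of all 8 for this short transcript. The log2 fold changes were 0.09 ± 0.39 and 0.17 ± 0.39 (0.36 and 0.45 without eGFP control 3). Cks2 was at 61.0, 95.1 and 100.5 CPM with NFAT5, 44.5, 86.8 and 94.3 CPM with CA-RIT NFAT1, and 62.9 and 54.8 CPM with eGFP. It has the 1 lowest value in CA-RIT NFAT1 2, and its log2 fold change of CA-RIT NFAT1 against NFAT5 was -0.20 ± 0.35. Of the phosphatases, Cdc25b, named after its values were seen, was at 318, 293 and 254 CPM with NFAT5, 309, 344 and 241 CPM with CA-RIT NFAT1, and 71.9 and 192 CPM with eGFP; the eGFP libraries are the lowest and differ widely from each other. Its log2 fold changes were 1.05 ± 0.37 and 1.08 ± 0.37 (0.56 and 0.60 without eGFP control 3).

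Foxm1, the transcription factor that drives many of these promoters (chromosome 6, 128362967 to 128376146, plus strand), was at 109.9, 80.8 and 93.9 CPM with NFAT5, 81.8, 102 and 84.0 CPM with CA-RIT NFAT1, and 4.74 and 54.3 CPM with eGFP. eGFP control 3 is far below all others, eGFP control 6 is also below every vector library, and the log2 fold changes of 1.63 ± 0.77 and 1.53 ± 0.77 became 0.78 and 0.68 without eGFP control 3. The standard errors are wide, and the controls lie far apart from each other. A list of 11 MuvB, B-MYB and DREAM genes, which act on the same promoters, lay above 0 for 8 in both comparisons with eGFP, with medians of 0.43 and 0.42 (0.27 and 0.20 without eGFP control 3) and 0 called by edgeR (2 and 1 at an unadjusted p below 0.05, against 7.26% and 6.44% of all genes). Without eGFP control 6, edgeR called 5 and 6 of these 11, beside the larger background given above for that fit. In that list the smallest p went to Rbl1, the repressor p107, and Mybl2, B-MYB: Mybl2 was at 187, 150.2 and 189 CPM with NFAT5, 131, 173 and 181 CPM with CA-RIT NFAT1, and 51.1 and 126 CPM with eGFP, all vector libraries above both controls.

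The mitotic kinases, 5 genes with medians of 0.64 and 0.73 (0.41 and 0.54 without eGFP control 3), were all above 0 with both vectors. Plk1, the Polo kinase of mitotic entry and spindle poles, was at 162, 204 and 211 CPM with NFAT5, 186, 247 and 272 CPM with CA-RIT NFAT1, and 105 and 158 CPM with eGFP. Both eGFP libraries are the lowest. Its log2 fold changes were 0.45 ± 0.27 and 0.73 ± 0.27 (0.26 and 0.54 without eGFP control 3). Aurka, Aurora A, which matures the centrosomes, was at 86.4, 89.6 and 123 CPM with NFAT5, 91.0, 142 and 136 CPM with CA-RIT NFAT1, and 84.4 and 87.3 CPM with eGFP. NFAT5 1 and 5 are level with the controls, CA-RIT NFAT1 4 and 9 are higher, and the log2 fold change of CA-RIT NFAT1 against NFAT5 was 0.29 ± 0.25. Aurkb, Aurora B, the kinase of the chromosomal passenger complex, was at 167, 167 and 256 CPM with NFAT5, 160.3, 211 and 241 CPM with CA-RIT NFAT1, and 91.0 and 146 CPM with eGFP. It has both controls lowest, with log2 fold changes of 0.64 ± 0.32 and 0.68 ± 0.32 (0.41 and 0.45 without eGFP control 3), while its partner Birc5, survivin, did not: Birc5 was at 243, 396 and 482 CPM with NFAT5, 232, 374 and 412 CPM with CA-RIT NFAT1, and 310.4 and 249.6 CPM with eGFP. eGFP control 3 is above NFAT5 1 and CA-RIT NFAT1 2 for Birc5. Its log2 fold changes were 0.31 ± 0.37 and 0.15 ± 0.37, or 0.57 and 0.41 without eGFP control 3.

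The spindle checkpoint genes, which stop anaphase until each kinetochore is attached, differed among themselves in eGFP control 3. Bub1, the kinase that gathers the checkpoint at kinetochores, was at 74.4, 92.6 and 74.7 CPM with NFAT5, 51.2, 87.8 and 106 CPM with CA-RIT NFAT1, and 39.4 and 46.6 CPM with eGFP. Both controls are lowest and near each other. The log2 fold changes were 0.80 ± 0.34 and 0.82 ± 0.34, or 0.26 and 0.21 with the length trend removed. Bub1b, BubR1, which binds and blocks CDC20 (chromosome 2, 118598211 to 118641591, plus strand), was at 149, 158 and 144 CPM with NFAT5, 115, 197 and 137 CPM with CA-RIT NFAT1, and 11.5 and 111 CPM with eGFP. For this gene eGFP control 3 alone is far below the rest, and the log2 fold changes of 1.24 and 1.22 became 0.41 and 0.40 without it. Bub3, their common partner and the shortest of these 3, was at 255, 309 and 367 CPM with NFAT5, 273, 354 and 361 CPM with CA-RIT NFAT1, and 348 and 242 CPM with eGFP. eGFP control 3 is among the higher libraries there and eGFP control 6 is the lowest. The log2 fold changes were -0.04 ± 0.28 and 0.03 ± 0.28 (0.34 and 0.41 without eGFP control 3). The remaining checkpoint genes, Mad2l1 and Ttk, ran from 127 to 205 CPM and from 13.2 to 43.8 CPM over the 8 libraries.

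Exit from mitosis needs the anaphase promoting complex, its activator CDC20 and its E2 enzyme UBE2C, which lead to loss of securin and release of separase. Cdc20 was at 159.8, 254 and 273 CPM with NFAT5, 194, 245 and 316 CPM with CA-RIT NFAT1, and 121 and 183 CPM with eGFP. All CA-RIT NFAT1 libraries are above both controls by a small margin, and NFAT5 1 is between the controls. Ube2c was at 180.0, 273 and 334 CPM with NFAT5, 215, 336 and 388 CPM with CA-RIT NFAT1, and 172 and 158 CPM with eGFP. Its controls are the 2 lowest libraries, the only such case among the 10 genes with transcripts under 1500 bases. Its log2 fold changes were 0.56 ± 0.35 and 0.80 ± 0.35. Pttg1, securin, which holds separase inactive (chromosome 11, 43420250 to 43426251, minus strand), was at 214, 294 and 364 CPM with NFAT5, 215, 248 and 330.3 CPM with CA-RIT NFAT1, and 437 and 228 CPM with eGFP. It is the 1 gene of the 54 with its highest level in eGFP control 3, and its log2 fold changes of -0.32 ± 0.37 and -0.47 ± 0.37 changed sign to 0.33 and 0.18 without that library. Espl1, separase, which cuts the cohesin ring (chromosome 15, 102296266 to 102324357, plus strand), was at 80.6, 53.5 and 11.3 CPM with NFAT5, 63.2, 109 and 41.0 CPM with CA-RIT NFAT1, and 14.9 and 42.8 CPM with eGFP. NFAT5 8 is the lowest library and CA-RIT NFAT1 4 the highest, and a log2 fold change of 0.66 ± 0.78 with NFAT5 and 1.22 ± 0.80 with CA-RIT NFAT1 goes with that spread (0.14 and 0.70 without eGFP control 3). The complex itself, a list of 14 core genes and regulators, was split evenly: 7 and 8 of 14 lay above 0, with medians of 0.04 and 0.09 (0.03 and 0.06 without eGFP control 3). Fzr1, the CDH1 activator of the complex in G1, had an unadjusted edgeR p of 0.0271 and 0.0141 and log2 fold changes of 0.62 and 0.72. Cdc27, of the same list, had an unadjusted edgeR p of 0.0361 and 0.0134 and log2 fold changes of 0.87 and 1.10. Both genes had edgeR adjusted p = 0.654 and 0.68, and 0 of the 14 were called.

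Kinesins, the motors that move spindle fibres and chromosomes, were above 0 for 8 of 8 in both comparisons, with medians of 0.65 and 0.73 (0.36 and 0.43 without eGFP control 3). Kif11, or Eg5, which pushes the spindle poles apart (chromosome 19, 37376403 to 37421859, plus strand), was at 229, 206 and 271 CPM with NFAT5, 184, 258 and 194 CPM with CA-RIT NFAT1, and 44.7 and 122 CPM with eGFP. Both controls lie below all vector libraries. The log2 fold changes were 1.42 ± 0.39 and 1.26 ± 0.39 (edgeR adjusted p = 0.654 and 0.68), or 0.93 and 0.77 without eGFP control 3 and 0.92 and 0.58 with the length trend removed. Kif20a, which works at the midzone of the late spindle, was at 173, 155 and 195 CPM with NFAT5, 135, 229.9 and 198 CPM with CA-RIT NFAT1, and 35.4 and 137 CPM with eGFP. CA-RIT NFAT1 2 is just under eGFP control 6, and eGFP control 3 is far below the rest. The other 6 kinesins had log2 fold changes between 0.47 and 0.87 with NFAT5 and between 0.52 and 0.96 with CA-RIT NFAT1. The spindle assembly group (Tpx2, Hmmr, Nusap1, Prc1, Ckap2 and Ckap2l) had 6 of 6 above 0 in both, from 0.44 to 1.02 and from 0.31 to 1.21. Its medians of 0.86 and 1.09 became 0.42 and 0.52 without eGFP control 3. Within it Prc1, which bundles the midzone fibres and was named after its values were seen, was at 152, 200.0 and 249 CPM with NFAT5, 207, 253 and 236 CPM with CA-RIT NFAT1, and 28.6 and 161 CPM with eGFP; only eGFP control 3 stands out.

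Centromere and kinetochore genes had short and long transcripts among them, with 5 of 6 above 0 in both comparisons (medians 0.43 and 0.54). Cenpe, the kinetochore motor that brings chromosomes to the spindle equator (chromosome 3, 135212537 to 135273611, plus strand), was at 81.9, 76.6 and 99.3 CPM with NFAT5, 58.3, 88.6 and 112 CPM with CA-RIT NFAT1, and 31.1 and 39.3 CPM with eGFP. Both controls are lowest, at similar levels, and the log2 fold changes of 1.19 ± 0.33 and 1.19 ± 0.33 (edgeR adjusted p = 0.654 and 0.68) were 1.11 and 1.10 without eGFP control 3 but 0.45 and 0.25 with the length trend removed. Cenpa, the histone H3 variant that marks centromeres, was at 192, 265 and 329 CPM with NFAT5, 193, 232 and 281 CPM with CA-RIT NFAT1, and 232 and 187 CPM with eGFP. The groups overlap, with log2 fold changes of 0.21 ± 0.30 and 0.04 ± 0.30 (0.47 and 0.29 without eGFP control 3). Cenpf, a large kinetochore protein of late G2, was at 16.7, 35.1 and 13.4 CPM with NFAT5, 29.4, 48.8 and 28.3 CPM with CA-RIT NFAT1, and 2.55 and 15.5 CPM with eGFP. NFAT5 8 is below eGFP control 6, and CA-RIT NFAT1 libraries are all above it. The log2 fold changes were 1.21 ± 0.75 and 1.90 ± 0.78 (0.46 and 1.16 without eGFP control 3). Spc25, a subunit of the NDC80 complex that grips microtubules, was at 60.4, 77.4 and 106 CPM with NFAT5, 65.2, 80.5 and 108 CPM with CA-RIT NFAT1, and 105 and 69.7 CPM with eGFP. eGFP control 3 is there near the top, and the log2 fold change of -0.22 ± 0.36 with NFAT5 became 0.20 without it. The other NDC80 subunits measured, Ndc80 and Nuf2, had log2 fold changes between 0.43 and 0.58 over both comparisons.

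Condensin genes, which fold chromosomes for division, were 5 of 5 above 0 in both comparisons when counted with Cdca2, with medians of 0.38 and 0.55. Smc4, a core subunit of condensin, was at 298, 255 and 253 CPM with NFAT5, 313, 332 and 347 CPM with CA-RIT NFAT1, and 148 and 238 CPM with eGFP. It is the 1 gene of the 54 for which every CA-RIT NFAT1 library lies above every NFAT5 library, by a narrow margin, with a log2 fold change of 0.29 ± 0.20 between them and 0.67 ± 0.22 against eGFP (0.44 without eGFP control 3). In cytokinesis, 4 of 5 genes lay above 0 in both comparisons. Anln, anillin, a scaffold of the contractile ring (chromosome 9, 22332012 to 22389188, minus strand), went the other way at 23.1, 15.7 and 20.3 CPM with NFAT5, 13.4, 15.9 and 17.4 CPM with CA-RIT NFAT1, and 17.4 and 26.5 CPM with eGFP. eGFP control 6 is the highest library, the groups overlap, and the log2 fold changes were -0.25 ± 0.37 and -0.60 ± 0.37, or -0.46 and -0.80 without eGFP control 3, which makes it the 1 gene of the 54 below 0 in that setting. Its level per length is the lowest of the 54, a median of 4.21 TPM.

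The levels of the 54 genes in eGFP control 3 followed the length of their transcripts. Length here is the mean over the transcripts of a gene, weighted by TPM; its median was 2207 bases for the 54 and 1898 bases for all genes tested, and 31.5% of the 54 exceeded 3000 bases against 22.1% of all. Of the 10 genes under 1500 bases, 8 were higher in eGFP control 3 than in eGFP control 6, with a median log2 ratio of 0.31. Of the 27 between 1500 and 3000 bases, 6 were higher (median -0.35), and of the 17 longer ones 0 were (median -1.41). All genes tested showed the same order, with medians of 0.13, -0.40 and -0.95. Spearman's rho between the log2 ratio and length was -0.66 across the 54 genes and -0.38 across all genes tested; genes within 1 library share its depth and preparation, so these are descriptions. In 36 of the 54, eGFP control 3 was the lowest of the 8 libraries. The share of all genes with that order was not counted, so this count alone does not set the 54 apart. The longest, Mki67 and Cenpe, were not among the most reduced: their log2 ratios of eGFP control 3 to 6 were -0.47 and -0.33, against -3.27 for Foxm1 and -3.17 for Bub1b. Other libraries leaned too. Across the 54, rho between length and the level relative to the mean of the 8 was 0.82 in NFAT5 1 and 0.61 in CA-RIT NFAT1 2. It was 0.54 in CA-RIT NFAT1 4, -0.38 in NFAT5 8 and -0.68 in eGFP control 3. Leaving out eGFP control 3 therefore does not take out every trend with length.

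**Figure D3:**
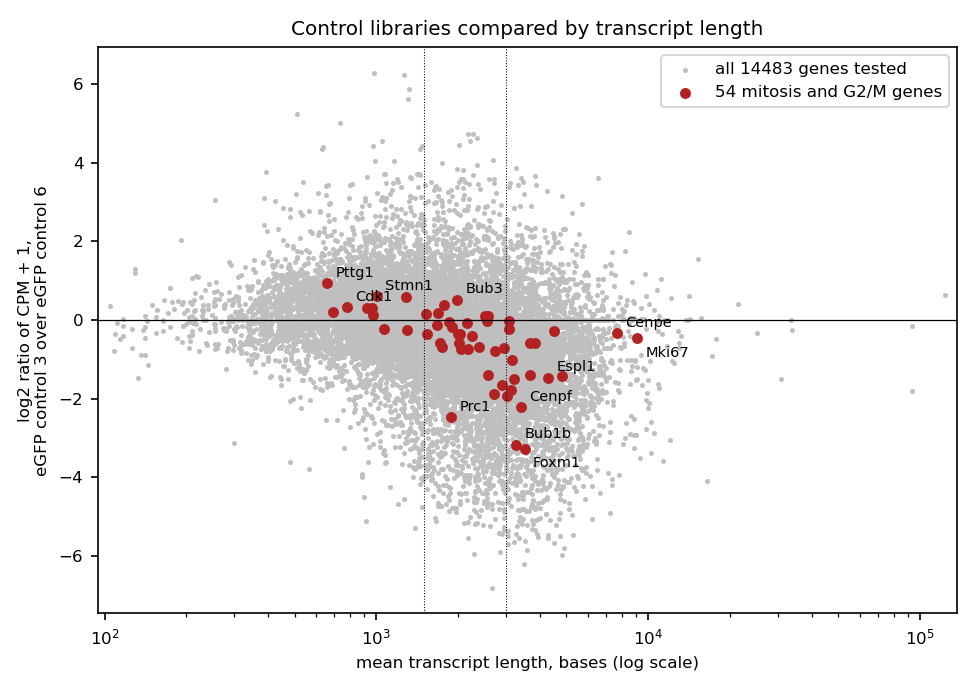
Log2 ratio of CPM + 1 in eGFP control 3 over eGFP control 6 (vertical axis) against mean transcript length in bases (horizontal, log scale) for all genes tested (grey) and the 54 genes (red, 11 named); dotted lines mark 1500 and 3000 bases. Red points lie around or above 0 for short genes and below 0 for all 17 genes over 3000 bases, with Bub1b and Foxm1 the lowest.

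The differences from eGFP followed the same order of length. With NFAT5 the median log2 fold change was 0.24 for the short genes, 0.50 for the middle ones and 0.95 for the long ones, against -0.18, 0.12 and 0.46 for all genes of those lengths. With CA-RIT NFAT1 it was 0.16, 0.64 and 1.15, against -0.27, 0.18 and 0.57. Without eGFP control 3 the medians were 0.44, 0.39 and 0.50 with NFAT5 (all genes 0.07, 0.01 and 0.09) and 0.35, 0.46 and 0.64 with CA-RIT NFAT1 (all genes -0.01, 0.03 and 0.17). In both comparisons the medians of the 54 thus lay above those of all genes of like length in each class, with and without that library. When a smooth trend with length was removed over all genes, 44 and 43 of 54 lay above 0, with medians of 0.34 and 0.32, against -0.09 and -0.10 for all genes. Single genes moved more: 30 and 35 of the 54 changed sign or moved by over 1.5 times when the trend was removed. The same held for 33 and 31 when eGFP control 3 was left out, and for 31 and 29 when eGFP control 6 was. Using eGFP control 6 alone as the control, it was below all 6 vector libraries for 31 of the 54, against 12.1% of all genes. Both controls were below all 6 for 29 of the 54, against 7.01% of all genes: 1 of 10 short, 17 of 27 middle and 11 of 17 long genes.

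**Figure D4:**
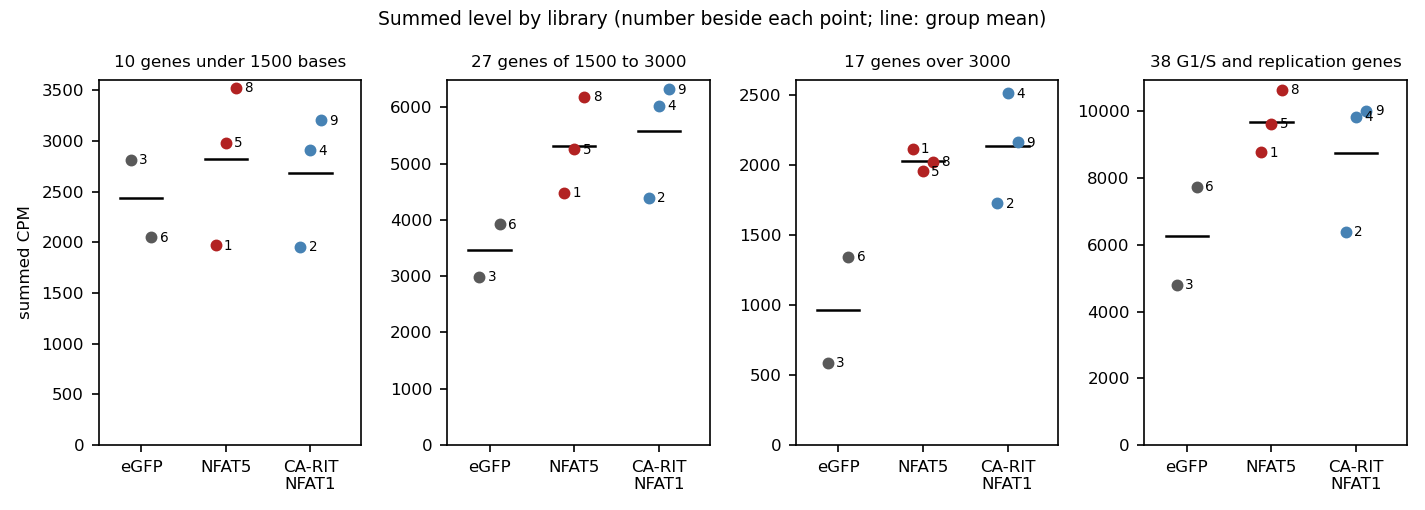
Summed CPM (vertical axis, from 0) in each of 8 libraries (points, with the library number; lines are group means of 2 eGFP, 3 NFAT5 and 3 CA-RIT NFAT1 libraries) for the 54 genes by length class and for 38 G1/S and DNA replication genes. For the short genes eGFP control 3, at 2817 CPM, lies within the range of the other groups, while for the long genes it is lowest at 585 CPM and eGFP control 6 follows at 1347 CPM.

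Summed levels gave the same order. The 10 short genes summed to 1970.2, 2980.1 and 3524 CPM with NFAT5, 1955, 2908 and 3203 CPM with CA-RIT NFAT1, and 2817 and 2049 CPM with eGFP, so the groups overlap. The 27 middle genes summed to 4487, 5253 and 6184 CPM with NFAT5, 4386, 6030.3 and 6319 CPM with CA-RIT NFAT1, and 2994 and 3919 CPM with eGFP, with both controls lowest. The 17 long genes summed to 2116, 1956 and 2024 CPM with NFAT5, 1728, 2514 and 2164 CPM with CA-RIT NFAT1, and 585 and 1347 CPM with eGFP, again with both controls lowest.

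Single transcripts give a closer view of eGFP control 3, in genes chosen after their transcript shares were seen. Cenpf-204, a Cenpf transcript of 11130 bases, held 16 of 93 Cenpf reads there, a share of 17.2% (95% Wilson interval 10.9% to 26.1%), against 56.0% (51.0% to 60.9%) in eGFP control 6 and 49.2% to 77.8% in the 6 vector libraries. The shorter Cenpf-203 of 3001 bases held 72.0% of the reads in eGFP control 3. A low share was not particular to that library: in CA-RIT NFAT1 10, left out of the comparisons, Cenpf-204 held 59 of 517 Cenpf reads (11.4%). Espl1-207, a transcript of 2298 bases with a retained intron, chosen after its values were seen, held 28.3% (24.7% to 32.2%) of Espl1 reads in eGFP control 3 and 0 reads in every other of the 8 libraries. Long transcripts of like length were not all low in eGFP control 3. Espl1-201 of 6658 bases held 56.6% of Espl1 reads there and Espl1-202 of 6635 bases 0.0%, against 95.5% and 3.31% in eGFP control 6. Prc1-202 of 3026 bases held 16.8% of Prc1 reads in eGFP control 3 and Prc1-210 of 3008 bases 0.0%, against 20.1% and 27.7% in eGFP control 6. Intervals cover counting error only, and the division of reads among transcripts is Salmon's estimate.

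Other cell cycle genes were read beside the 54. For scale, 7.26% of all genes with NFAT5 and 6.44% with CA-RIT NFAT1 had an unadjusted edgeR p below 0.05. The shares of all genes above 0 are those given with each comparison. A list of 42 other mitosis and G2/M genes lay above 0 for 37 with NFAT5 and 36 with CA-RIT NFAT1 (medians 0.65 and 0.67, or 0.38 and 0.52 without eGFP control 3), with 0 called by edgeR and 10 and 8 at an unadjusted p below 0.05. Its smallest p with CA-RIT NFAT1 was that of Aspm, a spindle pole protein, at 23.7, 18.8 and 18.7 CPM with NFAT5, 17.7, 42.5 and 23.0 CPM with CA-RIT NFAT1, and 2.44 and 7.85 CPM with eGFP. A list of 38 G1/S and DNA replication genes lay above 0 for 34 and 32 (medians 0.56 and 0.39), with 0 called and 3 and 5 at an unadjusted p below 0.05. For this list the 3 of 38 with NFAT5 is near the share of all genes. That list summed to 8769, 9614 and 10644 CPM with NFAT5, 6385, 9831 and 10009.6 CPM with CA-RIT NFAT1, and 4796 and 7739 CPM with eGFP, so eGFP control 6 lies above CA-RIT NFAT1 2. Without eGFP control 3 its medians were 0.33 and 0.16. Between the vectors the replication list had 5 of 38 above 0 with CA-RIT NFAT1, with a median of -0.15 and 0 called, while the 54 genes had 32 of 54 and 0.04; whether these differ was not tested. Clspn, claspin of the replication checkpoint, had the smallest p of the list with both vectors and was at 35.6, 31.6 and 41.2 CPM with NFAT5, 28.8, 32.9 and 36.8 CPM with CA-RIT NFAT1, and 10.7 and 18.6 CPM with eGFP.

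The brakes on the cycle lay on both sides of 0. Of 15 CDK inhibitor and quiescence genes, 9 and 7 lay above 0, with medians of 0.25 and -0.14 and 0 called by edgeR. Only 4 and 6 did in the fit without eGFP control 3, with medians of -0.11 and -0.12. Cdkn1a, p21, which blocks CDKs after damage or arrest, was at 152, 79.8 and 94.9 CPM with NFAT5, 73.4, 99.3 and 116 CPM with CA-RIT NFAT1, and 344 and 145 CPM with eGFP. eGFP control 3 is the highest, eGFP control 6 lies below NFAT5 1, and the log2 fold changes of -1.31 and -1.49 became -0.45 and -0.63 without eGFP control 3. Rb1, the retinoblastoma protein that holds E2F factors, was at 61.0, 41.9 and 45.6 CPM with NFAT5, 41.3, 58.7 and 71.5 CPM with CA-RIT NFAT1, and 12.2 and 30.8 CPM with eGFP, with both controls lowest.

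Markers of the cells in the sort were read beside the same groups. The 12 T cell markers summed to 28554, 29105 and 27563 CPM with NFAT5, 34709, 29979.7 and 29124 CPM with CA-RIT NFAT1, and 42768 and 34094 CPM with eGFP. By this sum eGFP control 3 is the highest and eGFP control 6 lies within the range of CA-RIT NFAT1. Trbc2 alone made up 25609 and 22359 CPM of the eGFP sums. Most markers were highest in eGFP control 3, but Cd3e, Cd5 and Zap70 were lowest of the 8 there, at 623, 43.5 and 144 CPM. The median log2 fold changes of the 12 were -0.39 and -0.43, or -0.16 and -0.11 without eGFP control 3. The 13 mast cell and P511 markers summed to 154, 225 and 266 CPM with NFAT5, 229.7, 136 and 84.0 CPM with CA-RIT NFAT1, and 283 and 60.6 CPM with eGFP, with Tpsb2, Tpsab1 and Fcer1a at 0 in every library. The 14 macrophage markers summed to 249, 100.0 and 227 CPM with NFAT5, 458, 193 and 231 CPM with CA-RIT NFAT1, and 221 and 226 CPM with eGFP. Single macrophage markers went both ways. Lyz2 and Fcgr1 were at 0 in both controls. Chil3, C1qa, C1qb, C1qc and Ms4a7 were highest of the 8 in eGFP control 3, with Chil3 at 73.9 CPM there and at 0 in eGFP control 6. Cd68 was at 90.0 and 108 CPM with eGFP, within the range of CA-RIT NFAT1. Itgam was at 6.21 and 110 CPM with eGFP and reached 230 CPM in CA-RIT NFAT1 2. The like sums of the eGFP libraries thus hold unlike genes. The 15 dendritic cell, B cell, NK and neutrophil markers summed to 297, 214 and 207 CPM with NFAT5, 312, 222 and 183 CPM with CA-RIT NFAT1, and 1055 and 238 CPM with eGFP. In eGFP control 3 most of that sum was Cd74, at 565 CPM, and H2-Ab1, at 454 CPM, and 9 of the 15 were at 0. The sum there therefore does not speak for all the cell types listed. The part of these marker genes in the differences of the 54 genes was not tested. CA-RIT NFAT1 10, with a T cell marker sum of 238 CPM and a mast cell and P511 marker sum of 5257 CPM, had 7896 CPM of the 54 genes, so RNA of these genes is present where T cell RNA is nearly absent. Cdc25b is an exception, at 0 CPM in that library and at 241 to 344 CPM in the 6 libraries with either vector.

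Reads shared with other genes could touch 17 of the 54, whose exon bases overlap another gene. The pseudogenes Ccnb1-ps and Ccnb2-ps held at most 0.280% and 0.200% as many reads as Ccnb1 and Ccnb2 in a library. Exon bases are shared with a gene on the opposite strand for 14 of the 54, among them Cdc20 with Elovl1, at up to 197 CPM, and Kif20a with Cdc23, at up to 98.8 CPM. Whether the libraries kept the strand is not given in the sources used here, so such reads cannot be told apart for those genes.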

How the data were processed

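The RNA of sorted CD8 T cells was sequenced after a Clontech library preparation, per the labels' protocols. Per the submitters' processing notes, the authors used Salmon 0.14.1 for quantification, with builds mm10 and GRCm38.p6 named; strand and trimming settings are not given in the sources at hand. The deposited files give estimated counts and TPM per transcript with the transcript's length and effective length (a quantity other than expression), per the file headers. Of 140919 transcripts, 140045 were matched to GENCODE M21 (99.9% with equal length), and the 874 others, up to 0.276% of a library, were left out. Estimated counts were summed over 54408 genes and rounded. CPM use no further scaling factor, log2 levels add 1 CPM, and TPM served only for levels per length and for mean lengths.

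The test was edgeR 4.0.16 (R 4.3.3; quasi-likelihood, TMM, default low-count filter, Benjamini-Hochberg at 0.05), with the 3 groups of 8 libraries in 1 fit. All 54 genes were among the 14483 that passed the filter. Standard errors are those implied by a fold change and its test. The biological coefficient of variation was 0.725. On data simulated for NFAT5 against eGFP at 14759 genes with a variation of 0.7, edgeR recovered 0%, 1.49% and 34.8% of genes with an absolute log2 fold change of 1, 2 and 4, and at a variation of 0.22 it recovered 26.9%, 91.0% and 93.9%. Every simulated gene had the same variation, and no simulated library had a trend with length. These shares are therefore not the recovery for the 54 genes and do not account for the lack of calls among them. Alternatives were all 10 libraries, RLE and upper-quartile scaling, no filter, a filter of 10 reads in 3 libraries and a mean of 5 CPM, DESeq2 1.42.0, limma 3.58.1 voom with quality weights, average transcript length offsets, a lowess length trend (span 0.3) removed, only the groups compared, and each library left out. The libraries eGFP control 7 and CA-RIT NFAT1 10 were left out of the main fit for their few reads and few T cell transcripts, which earlier results had shown, and the members and gene lists were likewise chosen with earlier results of these data known. Values in every library are given for 24 genes chosen for their roles and for those 3 that had the lowest p, upward and downward, in each comparison. Of the other lists, genes are named from the 4 with the smallest p in a comparison.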

Additional observations from a re-analysis of the deposited data

Results flagged for a closer look

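Among the 4 CA-RIT NFAT1 libraries, all 54 genes were screened for 1 library far from the others by Dixon's criterion for the gap as a share of the range. Of these genes, 5 stood out. Chance alone marks about 1 in 20 such sets of values if the 4 libraries are alike. CA-RIT NFAT1 10, left out of the main fit for its few T cell transcripts, was among the 4, so that share need not hold here. Aurka was lowest in CA-RIT NFAT1 2, at 91.0 CPM against 136 to 142 CPM in the other 3. Tpx2, which activates Aurora A on the spindle, was also lowest there, at 190.5 CPM against 254 to 262 CPM. Anln was highest in CA-RIT NFAT1 10, at 61.8 CPM against 13.4 to 17.4 CPM. Ect2, the exchange factor that starts the contractile ring, was highest there too, at 111 CPM against 51.8 to 58.6 CPM. Ckap2 was highest in CA-RIT NFAT1 4, at 76.8 CPM against 43.4 to 47.8 CPM.

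CA-RIT NFAT1 10, which was in that screen but in none of the main comparisons, summed to 7896 CPM over the 54 genes, above the 6395 and 7315 CPM of eGFP control 3 and 6. It had the highest level of the 9 deep libraries for 12 of the 54 (Top2a, Ccnb1, Aurkb, Bub3, Kif11, Kif20b, Kif15, Tpx2, Prc1, Anln, Ect2 and Espl1) and the lowest for 13 (Ccnb2, Birc5, Plk1, Cenpa, Cdc25b, Cdc25c, Cdca3, Stmn1, Nusap1, Racgap1, Ncapg, Smc2 and Pttg1). Pttg1 was at 26.9 CPM there and Cenpa at 34.8 CPM, against lowest levels of 214 and 187 CPM in the 8 libraries compared.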

How the results depend on the processing

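No paired analysis was possible because the library numbers run from 1 to 10 across the groups and no number is shared. The number of the 54 genes called by edgeR was 0 in each comparison under every alternative tried except the fits without eGFP control 6 (range with 1 library left out 0 to 17 for NFAT5 and 0 to 18 for CA-RIT NFAT1 against eGFP), and DESeq2 called 1 for CA-RIT NFAT1 against eGFP. The median log2 fold change of the 54 moved in no comparison by more than the spread of library medians (SD 0.39). That spread is among libraries rather than within groups, so it takes in differences between the groups. Staying under it does not show that a median was stable. Removing the length trend lowered both medians against eGFP, as given above. With all 10 libraries, NFAT5 against eGFP became 0.31 for Stmn1 and 0.22 for Bub3, CA-RIT NFAT1 against eGFP -0.10 for Cenpa and 0.17 for Anln, and CA-RIT NFAT1 against NFAT5 0.35 for Anln. For NFAT5 against eGFP, Stmn1 became 0.067 with voom and 0.026 with average transcript length offsets, where Smc4 became -0.021, and with the length trend removed Stmn1 became 0.095 and Aurka -0.054. For CA-RIT NFAT1 against eGFP, Bub3 became -0.046 and Cenpa -0.026 with upper-quartile scaling, and Bub3 -0.30 with the length trend removed. With 1 library left out, signs changed for NFAT5 against eGFP in Stmn1 (0.23 to 0.41), Bub3 (0.11 to 0.34), Pttg1 (0.33), Spc25 (0.20), Cdk1 (-0.12), Anln (0.012), Aurka (-0.079) and Mad2l1 (-0.09). For CA-RIT NFAT1 against eGFP they changed in Stmn1 (0.0092 to 0.25), Pttg1 (0.18), Bub3 (-0.26, -0.050 and -0.046), Cdk1 (-0.032 to -0.026), Birc5 (-0.045 to -0.015), Cenpa (-0.16 to -0.12), Mad2l1 (-0.04), Spc25 (0.24) and Ckap2 (-0.0090). Between the vectors most signs were not kept: 11 genes were higher and 3 lower in every such fit, and of the genes with the smallest p Cks2 (0.085) and Cenpa (0.034) changed. The cause was not tested beyond the libraries and settings named. Of the 54, 46 were higher with NFAT5 and 44 with CA-RIT NFAT1 than with eGFP in every fit with 1 library left out. Kept signs were not counted over all genes, and these fits share most libraries, so the counts do not set the 54 apart. Depth was at least 93 reads for each of the 54 genes in each library compared, with the limit given above for eGFP control 3. Without either of the 2 eGFP libraries the lone control is assumed to vary like the other groups.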
